A study of Mus musculus with 6 samples.

Results

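The genes Pdk1, Pdk2, Pdk3, Pdk4, Pdha1, Pdhb, Dlat, Pdp1, Mpc1 and Mpc2 govern how pyruvate enters mitochondria and becomes acetyl-CoA, and they are described here in mouse 3T3-L1 adipocytes. They were chosen by symbol and not by a cut on measured values, though earlier results of these data were known. Each symbol matched 1 Ensembl ID, and these 10 genes are 10 of the 21769 gene IDs present in all 6 libraries. All 10 were kept by the filter on low values (an average of 1 FPKM or more across the libraries), which left 10976 genes to test. FPKM is fragments per kilobase of exon, scaled to the fragments of the library.

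The libraries were 3 of cells given chronic intermittent hypoxia (CIH 1, 2 and 3), meaning repeated spells of low oxygen, and 3 of control cells (control 1, 2 and 3). All 6 are labelled wild type and as adipocytes of the line 3T3-L1, a mouse fibroblast line that can be turned into fat cells in culture. Per the labels' protocols all cells grew in 10% fetal bovine serum, were induced with insulin and then stayed in medium with 0.1 µM insulin until day 8, and 1.3 µg of total RNA went into each strand-specific library. The sources used here give neither the oxygen levels nor the length of the cycles. A single cell line was used and no separate cultures are named, so p-values speak only of how far these libraries scatter, and that scatter could be technical.

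CIH 1, CIH 2, control 1 and control 2 were deposited as gene tables, and CIH 3 and control 3 as tables with 1 value per transcript entry, so levels are compared within a kind of table and not across kinds. In the gene tables the values came in steps of nearly whole fragments, which gave about 26200000 fragments in CIH 1, 27400000 in CIH 2, 25700000 in control 1 and 28000000 in control 2; the depth of CIH 3 and control 3 is unknown. White adipocyte markers (10 genes) summed to 7059.9, 6252 and 646 FPKM in CIH 1, 2 and 3, against 6872, 7219 and 29454 FPKM in control 1, 2 and 3, and none was listed at 0. Pparg is also on the list of regulators below, as Ppargc1a of the brown markers is. Of the 9 tested, 0 rose, 4 fell and 5 were not called in CIH 1 and 2, beside 18.2% higher and 20.9% lower over all tested genes. All 9 were at least 2-fold lower in CIH 3, beside 11.8% of all tested genes. Preadipocyte and fibroblast markers (6 genes) summed to 506, 505 and 4664 FPKM in CIH 1, 2 and 3, against 290, 311 and 784 FPKM in control 1, 2 and 3. Of these, 5 rose and 1 fell in CIH 1 and 2. All 6 were at least 2-fold higher in CIH 3, beside 21.8% of all tested genes. Brown adipocyte markers (4 genes) summed to 2.94, 3.37 and 17.9 FPKM in CIH 1, 2 and 3, against 8.02, 8.05 and 16.7 FPKM in control 1, 2 and 3. Of the 2 tested in CIH 1 and 2, Cidea was called lower (limma adjusted p = 0.000392) and Ppargc1a was not called. Cidea was at 0.0657 and 0.0626 FPKM in CIH 1 and 2, against 4.61 and 5.31 FPKM in control 1 and 2. Its 5.59-fold fall is on the scale of log2(FPKM + 1), which understates the change of such a low gene. Macrophage (4 genes) and endothelial markers (3 genes) summed to at most 4.62 and 0.547 FPKM in any library; Ucp1 was listed at 0 in CIH 1, CIH 2, CIH 3 and control 3, and Adgre1 in all 6 libraries. Mitochondrial-encoded genes made up 15.5%, 16.3% and 22.4% of the summed FPKM in CIH 1, 2 and 3, against 14.2%, 11.2% and 43.7% in control 1, 2 and 3. The part of these markers and shares in the results below was not tested. In bulk RNA, fewer cells of a type and less RNA per cell cannot be told apart.

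Pyruvate made in the cytosol crosses the inner mitochondrial membrane through a carrier built from MPC1 and MPC2. Inside, the pyruvate dehydrogenase complex turns it into acetyl-CoA: PDHA1 and PDHB form its decarboxylating E1 component and DLAT its acetyl-transferring E2 core. The kinases PDK1 to PDK4 phosphorylate PDHA1 and switch the complex off, and the phosphatase PDP1 removes the phosphate and switches it on. In fat cells the acetyl-CoA made this way feeds fatty acid synthesis, and Pdk1 is widely known as a gene induced by hypoxia-inducible factors, while Pdk4 is known to rise with fasting and with active PPAR and FOXO factors.

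Because all 4 kinase genes were lower in CIH 1 and 2, the bases just before their transcription starts are shown. They come from RefSeq (GRCm38.p6), read in the direction of the gene and cut where the first GENCODE exon begins. Capitals mark ACGTG or GCGTG, the core letters known to be read by hypoxia-inducible factors, on either strand (CACGT or CACGC where the match is on the other strand). The stretches are chr2:71872974-71873223 (plus strand) for Pdk1, chr11:95041372-95041621 (minus strand) for Pdk2, chrX:93832202-93832400 (minus strand) for Pdk3 and chr6:5496310-5496528 (minus strand) for Pdk4.
Pdk1: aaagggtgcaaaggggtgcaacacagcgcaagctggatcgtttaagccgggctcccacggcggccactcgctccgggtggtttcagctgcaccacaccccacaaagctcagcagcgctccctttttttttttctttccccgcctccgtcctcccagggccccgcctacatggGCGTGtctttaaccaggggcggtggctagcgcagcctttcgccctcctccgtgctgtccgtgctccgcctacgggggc
Pdk2: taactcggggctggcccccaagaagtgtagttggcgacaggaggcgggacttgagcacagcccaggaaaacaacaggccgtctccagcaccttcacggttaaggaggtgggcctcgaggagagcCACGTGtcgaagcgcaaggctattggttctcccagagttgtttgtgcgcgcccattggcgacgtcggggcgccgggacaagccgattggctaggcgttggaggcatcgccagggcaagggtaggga
Pdk3: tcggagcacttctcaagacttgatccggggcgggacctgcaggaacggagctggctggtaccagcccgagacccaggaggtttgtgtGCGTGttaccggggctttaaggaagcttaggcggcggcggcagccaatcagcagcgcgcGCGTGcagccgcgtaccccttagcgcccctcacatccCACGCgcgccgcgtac
Pdk4: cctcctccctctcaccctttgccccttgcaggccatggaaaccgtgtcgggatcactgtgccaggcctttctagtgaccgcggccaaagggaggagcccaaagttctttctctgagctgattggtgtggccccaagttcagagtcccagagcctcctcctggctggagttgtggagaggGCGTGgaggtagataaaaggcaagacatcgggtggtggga

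Pdk1 and Pdk4 each hold 1 GCGTG, starting 78 and 71 bases before the RefSeq start. Pdk2 holds ACGTG on both strands, overlapping as the palindrome CACGTG, which is also the E-box read by other factors. Pdk3 holds 3 GCGTG matches, and 1 ACGTG that starts 53 bases before the RefSeq start and runs past the printed stretch. Over windows of 250 bases before each RefSeq start, 8 of the 12 windows of 9 of the 10 genes hold ACGTG or GCGTG, as do 38.6% of all 32851 promoter windows; Pdp1 was not matched. Counted whether or not the other is present, ACGTG is in 16.6% and GCGTG in 28.2% of all windows. The forkhead letters GTAAACA, searched on both strands, were in 0 of the 12 windows and in 3.17% of all. A match is a description of the letters and not a site.

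The comparison asks which of these messenger RNAs differ between CIH and control cells. In CIH 1 and 2 all 4 kinase genes fell, Pdk1 and Pdk4 the most, while the genes of the complex itself (Pdha1, Pdhb and Dlat), the phosphatase gene Pdp1 and the carrier gene Mpc1 were not called and the carrier gene Mpc2 rose. By limma with Benjamini-Hochberg adjustment, 4 of the 10 genes fell, beside 20.9% of all 10976 tested genes. In the same fit 1 of the 10 rose, beside 18.2% of all tested genes, so that 5 of the 10 were called in either direction, beside 39.1%. The median log2 change of the 10 was −0.16, beside −0.01 over all tested genes. Over all genes 1995 were called higher and 2297 lower; with libraries scaled to equal totals these counts were 1368 and 3149, and the median change was −0.11. Fold changes below are on the scale of log2(FPKM + 1) and understate the change of low genes.

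**Figure D1:**
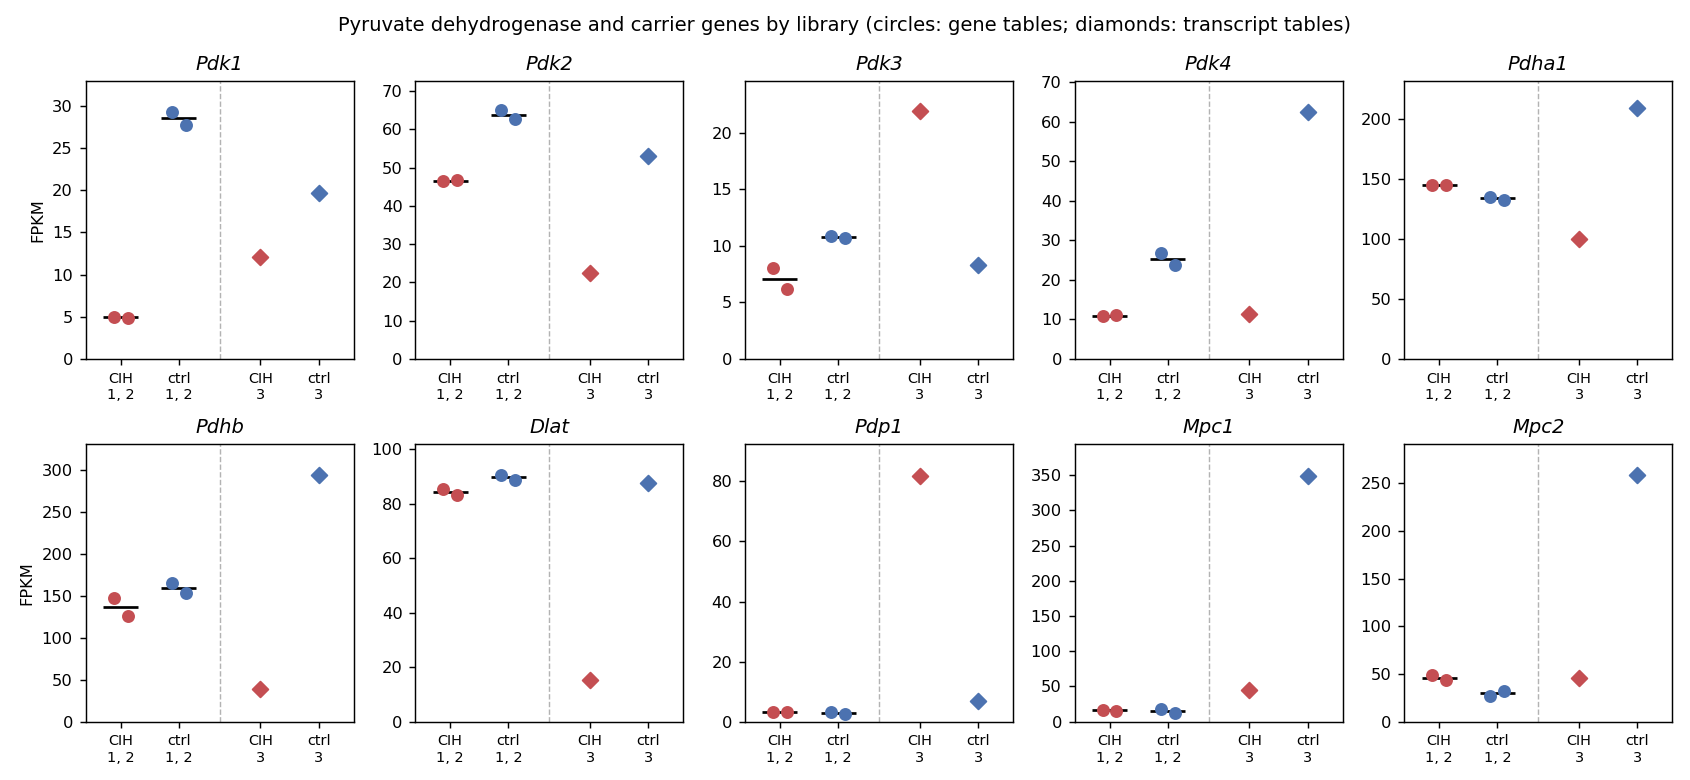
FPKM of the 10 genes in each library, with CIH left of control; circles are the gene tables (replicates 1 and 2, bar at the mean) and diamonds the transcript tables (replicate 3), which are not on a common scale. Pdk1 lies near 5 FPKM in CIH 1 and 2 and near 28 to 29 FPKM in control 1 and 2, and Pdp1 reaches 81.7 FPKM in CIH 3 against 6.73 in control 3.

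Pdk1 (ENSMUSG00000006494; GRCm38 chromosome 2, 71873224 to 71903858, plus strand) encodes the kinase best known for keeping pyruvate from becoming acetyl-CoA under low oxygen. It was at 5.02 and 4.83 FPKM in CIH 1 and 2, against 29.3 and 27.7 FPKM in control 1 and 2. Each CIH library lay far below both controls, and libraries of the same group lay within 2 FPKM of each other. Those values rest on 1021 and 1030 fragments in CIH 1 and 2, against 5859 and 6042 in control 1 and 2. The log2 change was −2.32 (SE 0.0728, 95% interval −2.50 to −2.13; limma adjusted p = 0.000392), a 4.98-fold fall. It lies at percentile 0.246 of the changes of all tested genes, counted from the most negative. In the transcript tables Pdk1 was at 12.1 FPKM in CIH 3 and 19.7 FPKM in control 3, a log2 difference of −0.66, which falls short of a 2-fold difference. With equal totals that difference shrank to −0.07. It was −0.50 with totals that left out mitochondrial-encoded genes, −0.71 by the upper quartile and −0.94 by the median of ratios.

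Pdk4 (ENSMUSG00000019577; chromosome 6, 5483351 to 5496309, minus strand) encodes the kinase that fasting and fatty acid use are known to raise in muscle and other tissues. It was at 10.8 and 11.2 FPKM in CIH 1 and 2, against 26.8 and 23.7 FPKM in control 1 and 2. The groups do not overlap, and the gap between them is several times the spread within either. The log2 change was −1.13 (SE 0.0852, 95% interval −1.35 to −0.91; limma adjusted p = 0.00164), a 2.19-fold fall. The replicate 3 pair went the same way, with 11.5 FPKM in CIH 3 and 62.5 FPKM in control 3, a log2 difference of −2.35. Of the 4 kinase genes, Pdk4 had the lowest ratio of CIH 3 to control 3. Pdk2 and Pdk4 were thus called lower in CIH 1 and 2 and were also at least 2-fold lower in CIH 3, 2 of the 10 genes, beside 4.08% of all tested genes.

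Pdk2 (ENSMUSG00000038967; chromosome 11, 95026258 to 95041354, minus strand) encodes a kinase present in most tissues. It had the highest FPKM of the 4 kinase genes in each of CIH 1, CIH 2, control 1 and control 2. Pdk2 was at 46.4 and 46.7 FPKM in CIH 1 and 2, against 65.1 and 62.6 FPKM in control 1 and 2. The CIH libraries lay below the controls with no overlap. The log2 change was −0.45 (SE 0.0649, 95% interval −0.61 to −0.28; limma adjusted p = 0.00766), a 1.36-fold fall. Pdk2 was at 22.6 FPKM in CIH 3 and 53.0 FPKM in control 3, a log2 difference of −1.20. It was −0.59 with equal totals and −1.04 with totals that left out mitochondrial-encoded genes.

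Pdk3 (ENSMUSG00000035232; chromosome X, 93764607 to 93832201, minus strand) encodes a kinase with a narrower tissue range. It was at 8.00 and 6.20 FPKM in CIH 1 and 2, against 10.9 and 10.7 FPKM in control 1 and 2. CIH 2 was lower than CIH 1, and both lay below the controls. The log2 change was −0.55 (SE 0.125, 95% interval −0.87 to −0.23; limma adjusted p = 0.0252), a 1.47-fold fall. That call was lost without control 1 (adjusted p = 0.0606) and without CIH 2 (adjusted p = 0.0726). In the replicate 3 pair Pdk3 went the other way, with 22.0 FPKM in CIH 3 and 8.29 FPKM in control 3, a log2 difference of 1.31.

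FPKM is per length, so the kinases were set against each other within a library. In the gene tables that length was all annotated exons of a gene, 7779 bases for Pdk1 and 3163 for Pdk2. The shares, and the ratios of genes below, therefore depend on the annotation. By fragments Pdk1 exceeded Pdk2 in control 1 and 2 (5859 and 6042, against 5298 and 5544). The 4 kinase genes summed to 70.2 and 68.9 FPKM in CIH 1 and 2, against 132 and 125 FPKM in control 1 and 2. The sum was thus lower in CIH, and its makeup differed too. Pdk1 made up 7.15% and 7.00% of the summed FPKM in CIH 1 and 2, against 22.2% and 22.2% in control 1 and 2. Pdk2 made up 66.1% and 67.8% in CIH 1 and 2, against 49.3% and 50.2% in control 1 and 2. Pdk1 had the second largest share in the controls and the smallest in CIH 1 and 2, where Pdk4 (15.4% and 16.2%, against 20.3% and 19.0% in control 1 and 2) and Pdk3 (11.4% and 8.999%, against 8.25% and 8.58%) both exceeded it. The shares come from the same 4 values as the changes above and carry no test of their own.

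In the transcript tables the makeup moved differently. The kinase sum was 68.1 FPKM in CIH 3 and 144 FPKM in control 3. Pdk3 made up 32.2% in CIH 3 and 5.78% in control 3. Pdk4 made up 16.8% in CIH 3 and 43.5% in control 3, while Pdk2 made up 33.1% and 37.0% and Pdk1 17.8% and 13.7%. CIH had the lower sum in gene and transcript tables alike, but the kinase with the largest drop in share was Pdk1 in the gene tables and Pdk4 in the transcript tables.

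**Figure D2:**
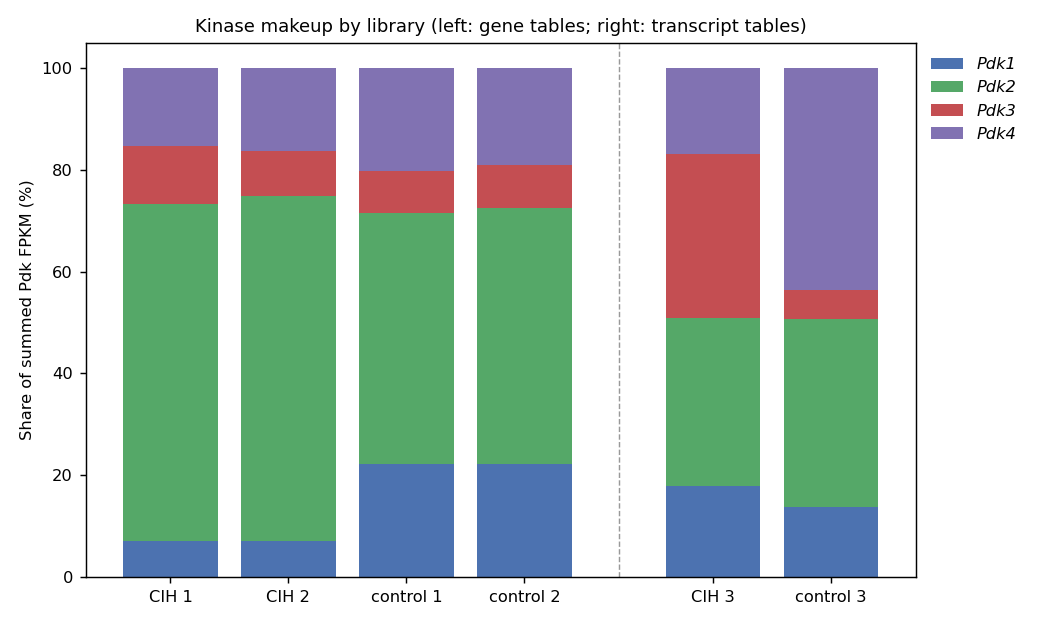
Share of each kinase gene in the summed Pdk FPKM of a library (stacked bars, percent), with gene tables left of the dashed line and transcript tables right of it, and CIH left of control on either side. Pdk1 takes 7.15% and 7.00% in CIH 1 and 2 against 22.2% in both gene-table controls, and Pdk3 takes 32.2% in CIH 3 against 5.78% in control 3.

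None of the 3 genes of the complex was called in the gene tables. Pdha1 (ENSMUSG00000031299; chromosome X, 160122209 to 160138413), which encodes the subunit the kinases phosphorylate, was at 145 and 145 FPKM in CIH 1 and 2, against 135 and 132 FPKM in control 1 and 2. The CIH libraries lay slightly above the controls, with a log2 change of 0.11 (95% interval −0.07 to 0.30; limma adjusted p = 0.257) that turned to −0.02 with equal totals. Pdhb (ENSMUSG00000021748; chromosome 14, 8165996 to 8173025), its E1 partner, was at 147 and 127 FPKM in CIH 1 and 2, against 166 and 153 FPKM in control 1 and 2. CIH 1 came close to control 2, and the log2 change was −0.22 (95% interval −0.49 to 0.05; limma adjusted p = 0.154). Dlat (ENSMUSG00000000168; chromosome 9, 50634633 to 50659780) was at 85.2 and 83.1 FPKM in CIH 1 and 2, against 90.6 and 88.8 FPKM in control 1 and 2. Its log2 change was −0.09 (95% interval −0.26 to 0.08; limma adjusted p = 0.324). The intervals exclude a 2-fold change for all 3 genes. With equal totals Pdhb and Dlat passed the test as lower (limma adjusted p = 0.0225 and 0.0376), and Pdhb did so too with totals that left out mitochondrial-encoded genes (adjusted p = 0.0427).

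The kinase sum over Pdha1, both per length, was 0.485 and 0.476 in CIH 1 and 2, against 0.977 and 0.944 in control 1 and 2. In the replicate 3 pair it was 0.684 in CIH 3 and 0.687 in control 3, since Pdha1 and the kinase sum were both lower there. The gap between groups seen in the gene tables was therefore not seen in that pair. Some Pdha1 exons overlap Map3k15 on the opposite strand, which reached at most 1.22 FPKM in any library.

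Pdp1 (ENSMUSG00000049225; chromosome 4, 11958184 to 11966452, minus strand), the phosphatase gene, was low in the gene tables. It was at 3.16 and 3.14 FPKM in CIH 1 and 2, against 3.11 and 2.48 FPKM in control 1 and 2, from 373 and 388 fragments in CIH and 361 and 313 in control. CIH 1, CIH 2 and control 1 were nearly level, and control 2 was lower. The log2 change was 0.13 (95% interval −0.13 to 0.40; limma adjusted p = 0.349). In the transcript tables Pdp1 stood out, with 81.7 FPKM in CIH 3 and 6.73 FPKM in control 3, a log2 difference of 3.42.

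That Pdp1 difference was spread over its transcript entries. Pdp1 has 6 entries in each transcript table, the number of its coding transcripts in GENCODE, and the entries carry no transcript names. In the order of the table they were at 20.8, 23.6, 6.84, 0.692, 4.37 and 25.4 FPKM in CIH 3, against 3.24, 1.52, 0.497, 1.47, 0.000249 and 0 FPKM in control 3. All but the fourth were higher in CIH 3, and with only the highest entry of each library the log2 difference was 2.64. The kinase sum over Pdp1 was 22.2 and 22.0 in CIH 1 and 2, against 42.4 and 50.3 in control 1 and 2, and it was 0.834 in CIH 3 and 21.3 in control 3. With the highest entry in place of the sum of entries it was 2.68 in CIH 3 and 42.6 in control 3. CIH had the lower ratio in gene and transcript tables alike. This ratio leaves out Pdp2, the second phosphatase gene, which lay above Pdp1 in the gene tables and was itself lower in CIH. Pdp2 was at 5.56 and 6.22 FPKM in CIH 1 and 2, against 10.8 and 10.1 FPKM in control 1 and 2. It was at 6.16 FPKM in CIH 3 and 14.8 FPKM in control 3. The ratio therefore does not describe kinase against all phosphatase genes. In the gene tables Pdp1 was nearly level while the kinase sum was lower, and in the transcript tables Pdp1 was higher and the kinase sum lower.

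Of the pyruvate carrier genes, Mpc2 rose in CIH 1 and 2 and Mpc1 was not called. Mpc2 (ENSMUSG00000026568; chromosome 1, 165460637 to 165481214, plus strand) was at 48.7 and 43.9 FPKM in CIH 1 and 2, against 27.4 and 32.0 FPKM in control 1 and 2. Both CIH libraries lay above both controls, and the log2 change was 0.63 (SE 0.103, 95% interval 0.36 to 0.89; limma adjusted p = 0.0108), a 1.54-fold rise. The call was lost without CIH 1 (adjusted p = 0.0596). Mpc2 went the other way in the third replicate, with 45.7 FPKM in CIH 3 and 258 FPKM in control 3, a log2 difference of −2.47.

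Mpc1 (ENSMUSG00000023861; chromosome 17, 8282904 to 8297661, plus strand) was at 17.0 and 15.4 FPKM in CIH 1 and 2, against 17.6 and 12.5 FPKM in control 1 and 2. The groups overlap, and Mpc1 is the only one of the 10 genes for which they do; over all tested genes the groups do not overlap in 74%. The log2 change was 0.11 (95% interval −0.31 to 0.54; limma adjusted p = 0.61). It turned to −0.11 without control 2 and to −0.01 with equal totals. Mpc2 over Mpc1 was 2.87 and 2.84 in CIH 1 and 2, against 1.56 and 2.55 in control 1 and 2. In the replicate 3 pair Mpc1 was at 44.7 FPKM in CIH 3 and 348 FPKM in control 3, a log2 difference of −2.93. Of its 6 entries the fifth held most of this, at 42.9 FPKM in CIH 3 and 339 FPKM in control 3, and no other entry passed 3.68 FPKM in either library. Some Mpc1 exons overlap the opposite-strand gene 4930506C21Rik, which reached at most 0.764 FPKM in the gene tables.

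**Figure D3:**
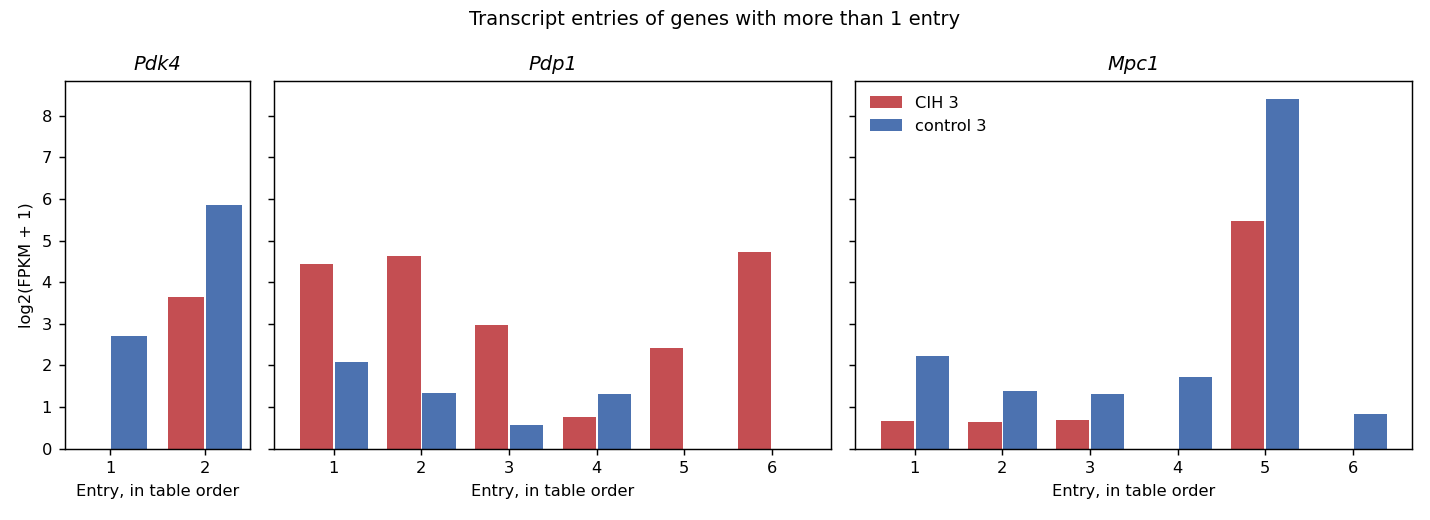
Transcript entries of Pdk4, Pdp1 and Mpc1, the genes with more than 1 entry, as log2(FPKM + 1) in CIH 3 (red, left bar) and control 3 (blue, right bar), in the order of the deposited tables. For Pdp1, 5 of 6 entries are higher in CIH 3, and for Mpc1 the fifth entry (42.9 FPKM in CIH 3, 339 FPKM in control 3) is the tallest in both libraries.

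In the replicate 3 pair, 7 of the 10 genes were at least 2-fold lower in CIH 3 (Pdk2, Pdk4, Pdha1, Pdhb, Dlat, Mpc1 and Mpc2), beside 11.8% of all tested genes, and 2 were at least 2-fold higher (Pdk3 and Pdp1), beside 21.8%. This pair has 1 library per group and no p-value. The median difference of all tested genes in this pair was 0.26, which became 0.83 with equal totals and 0.00 by the median of ratios. Relative to 0.26, Pdhb lay at −3.16, Dlat at −2.72, Pdha1 at −1.32, Mpc1 at −3.20, Mpc2 at −2.74 and Pdk4 at −2.61. Pdhb was at 38.6 FPKM in CIH 3 and 295 FPKM in control 3, Dlat at 15.2 and 87.7 FPKM, and Pdha1 at 99.6 and 209 FPKM. The genes of the complex were all lower in CIH 3, where the white adipocyte markers summed to 646 FPKM, against 29454 FPKM in control 3. Fabp4 alone was at 354 FPKM in CIH 3 and 17239 FPKM in control 3. A link between the complex genes and the markers was not tested. With equal totals, 5 of the 10 stayed at least 2-fold lower, as Pdha1 (−0.44) and Pdk2 (−0.59) did not. Over all genes those past 2-fold then numbered 4642 higher and 671 lower, against 2398 and 1292 unscaled. With totals that left out mitochondrial-encoded genes, 6 of the 10 stayed at least 2-fold lower.

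**Figure D4:**
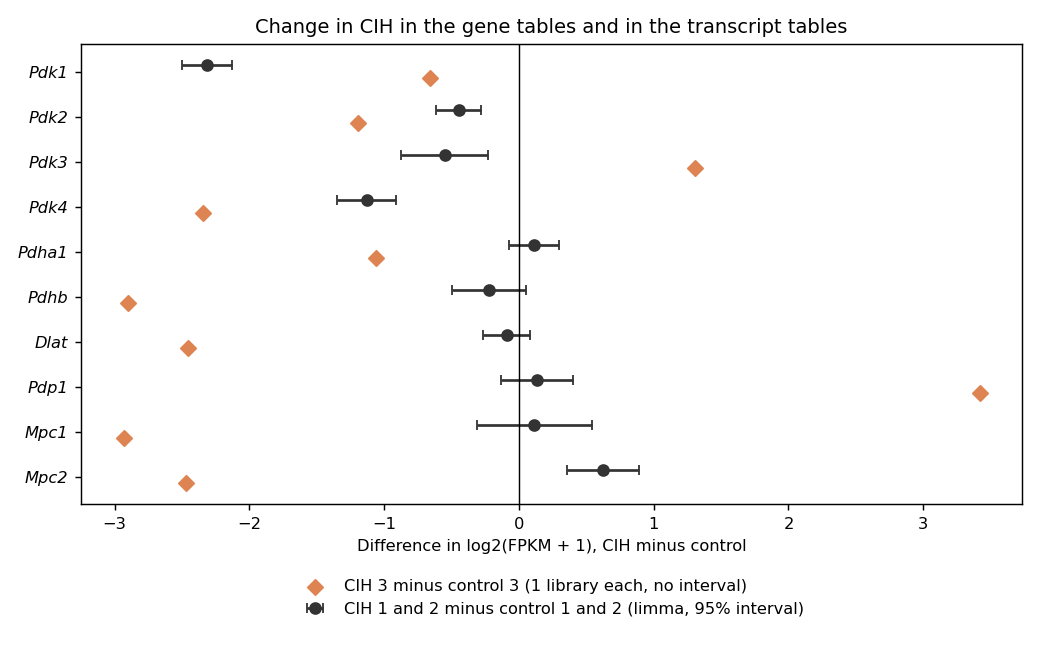
Difference in log2(FPKM + 1), CIH minus control, for the 10 genes: dark circles with 95% limma intervals for CIH 1 and 2 against control 1 and 2, and orange diamonds for CIH 3 against control 3, which have no interval. The kinases Pdk1, Pdk2 and Pdk4 lie left of 0 in both, Pdk3 and Mpc2 lie on opposite sides, and Pdha1, Pdhb, Dlat, Pdp1 and Mpc1 have circles whose intervals cross 0.

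The change in the replicate 3 pair was set against that in replicates 1 and 2 with the interaction of group and kind of table, by limma over all 6 libraries with Benjamini-Hochberg adjustment. The replicate 3 pair has 1 library per group and no spread of its own, so its libraries are assumed to vary like those of the gene tables, and the adjusted p-values hold only under that assumption. Under it all 10 genes passed the threshold: 3 were more positive in the replicate 3 pair (Pdk1, Pdk3 and Pdp1), beside 43.9% of tested genes, and 7 were more negative, beside 22.1%. The sizes ran from −3.10 for Mpc2 (SE 0.184, adjusted p = 0.000282) to 3.29 for Pdp1 (SE 0.178, adjusted p = 0.000226). The smallest was −0.75 for Pdk2 (adjusted p = 0.00414), and it shrank to −0.01 with equal totals (adjusted p = 0.925). With totals that left out mitochondrial-encoded genes it was −0.52. Fitted to all 6 libraries with the group alone, or with the kind of table added, limma called 0 of the 10 genes (490 of all tested genes had an unadjusted p under 0.05 with the group alone, and 0 were called). With it added, the lowest adjusted p were 0.0969 for Pdk4 and 0.111 for Pdk1.

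Other genes of the pathway were read from lists by role. Among 4 more genes of the complex and its control, Pdp2 and Pdpr fell, Pdhx rose and Dld was not called. Pdp2, the second phosphatase, was at 5.56 and 6.22 FPKM in CIH 1 and 2, against 10.8 and 10.1 FPKM in control 1 and 2 (1.66-fold fall, limma adjusted p = 0.00495). Pdpr, the regulatory subunit of the phosphatase, was at 18.5 and 21.3 FPKM in CIH 1 and 2, against 31.5 and 30.7 FPKM in control 1 and 2 (1.54-fold fall, limma adjusted p = 0.00705). CIH 3 had less of both as well, with Pdp2 at 6.16 FPKM in CIH 3 and 14.8 FPKM in control 3, and Pdpr at 21.7 and 54.8 FPKM. Pdhx, the protein that anchors the E3 component, rose 1.24-fold (limma adjusted p = 0.0419) but was at 13.2 FPKM in CIH 3 and 55.8 FPKM in control 3. All 4 genes of this list were at least 2-fold lower in CIH 3, beside 11.8% of all tested genes.

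Of the genes that supply lipoate, a cofactor of the complex, Lias rose 1.24-fold (limma adjusted p = 0.0381), Lipt1 rose 1.34-fold (adjusted p = 0.0486) and Lipt2 was not called. Both went the other way in the third replicate, with Lias at 24.4 FPKM in CIH 3 and 82.9 FPKM in control 3, and Lipt1 at 4.46 FPKM in CIH 3 and 6.79 FPKM in control 3. Of 7 tested genes for the sources and other fates of pyruvate, 4 fell, beside 20.9% of all tested genes, and 3 were not called. Pklr was below the filter. Gpt2, which makes alanine from pyruvate in mitochondria, was at 7.28 and 7.67 FPKM in CIH 1 and 2, against 23.0 and 21.4 FPKM in control 1 and 2 (2.73-fold fall, limma adjusted p = 0.000837). Gpt, its cytosolic counterpart, fell 2.22-fold (adjusted p = 0.00425), Pkm, which makes pyruvate, 1.59-fold (adjusted p = 0.00874), and Ldha, which makes lactate from it, 2.19-fold (adjusted p = 0.00362). Pcx, pyruvate carboxylase, the other main entry of pyruvate into mitochondrial metabolism, was at 751 and 733 FPKM in CIH 1 and 2, against 556 and 609 FPKM in control 1 and 2, and missed the call (limma adjusted p = 0.0743). Pcx was at 65.1 FPKM in CIH 3 and 813 FPKM in control 3. Of these 7 tested genes, 5 were at least 2-fold lower in CIH 3, beside 11.8% of all tested genes, and 0 were at least 2-fold higher.

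Of 3 tested genes of monocarboxylate transport, Bsg fell, Slc16a1 rose and Emb was not called, and Slc16a3 and Slc16a7 were below the filter. Bsg, the chaperone of lactate and pyruvate transporters at the cell surface, was at 464 and 403 FPKM in CIH 1 and 2, against 1476 and 1653 FPKM in control 1 and 2 (3.60-fold fall, limma adjusted p = 0.00191). Slc16a1, one such transporter, rose 1.29-fold in CIH 1 and 2 (limma adjusted p = 0.0413). In the replicate 3 pair Slc16a1 was at 12.0 FPKM in CIH 3 and 37.1 FPKM in control 3, and Bsg at 250 and 496 FPKM. Downstream, Acly, which makes cytosolic acetyl-CoA from citrate for lipid synthesis, was at 82.6 and 85.1 FPKM in CIH 1 and 2, against 170.3 and 168 FPKM in control 1 and 2 (2.002-fold fall, limma adjusted p = 0.00143). Cs, citrate synthase, was not called (adjusted p = 0.62). In the replicate 3 pair Acly was at 42.7 FPKM in CIH 3 and 79.8 FPKM in control 3, and Cs at 52.7 and 368 FPKM.

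Of 12 tested transcriptional regulators, 4 fell, 0 rose and 8 were not called, beside 20.9% lower and 18.2% higher over all tested genes. Ppara was below the filter. Foxo1, known to raise Pdk4, was at 6.14 and 6.46 FPKM in CIH 1 and 2, against 14.97 and 14.4 FPKM in control 1 and 2 (2.15-fold fall, limma adjusted p = 0.00134). Pparg fell 1.88-fold (limma adjusted p = 0.00383), Nr3c1, the glucocorticoid receptor, 1.36-fold (adjusted p = 0.0173) and Foxo3 1.34-fold (adjusted p = 0.0363). Foxo1 and Pparg were lower in CIH 3 too, at 7.14 FPKM in CIH 3 and 15.2 FPKM in control 3 for Foxo1, and at 23.9 FPKM in CIH 3 and 170.7 FPKM in control 3 for Pparg. Foxo3 and Nr3c1 were higher there, at 43.8 FPKM in CIH 3 and 19.7 FPKM in control 3 for Foxo3, and at 57.0 FPKM in CIH 3 and 46.9 FPKM in control 3 for Nr3c1. Hif1a and Epas1 were not called (adjusted p = 0.0903 and 0.134). In the replicate 3 pair Hif1a was at 47.6 FPKM in CIH 3 and 27.0 FPKM in control 3, and Epas1 at 25.5 and 55.5 FPKM. Of the 12 tested regulators, 1 was at least 2-fold higher in CIH 3 and 3 were lower, beside 21.8% and 11.8% of all tested genes.

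The genes whose pattern was most like that of Pdk1 and of Pdk4 were found by Euclidean distance of log2(FPKM + 1) over the 6 libraries, centred within each kind of table. For Pdk1 they were Cidea (distance 0.261), Apln (0.310) and Rab40b (0.326). Cidea, which encodes a lipid droplet protein, was at 0.0657, 0.0626 and 0.0699 FPKM in CIH 1, 2 and 3, against 4.61, 5.31 and 0.861 FPKM in control 1, 2 and 3. At such low FPKM the 1 added before the log shrinks the fall, so the nearness of Cidea to Pdk1 rests on that scale. Apln, which encodes the secreted peptide apelin, was at 5.52, 6.15 and 3.82 FPKM in CIH 1, 2 and 3, against 27.4, 29.1 and 5.61 FPKM in control 1, 2 and 3. For Pdk4 they were Gbe1 (0.194), Ucp3 (0.200) and Agt (0.204). Ucp3 was at 0.512, 0.616 and 0.117 FPKM in CIH 1, 2 and 3, against 2.33, 2.18 and 3.82 FPKM in control 1, 2 and 3. As for Cidea, the nearness of Ucp3 rests on the 1 added before the log. Gbe1, the glycogen branching enzyme, was at 7.37, 7.24 and 4.16 FPKM in CIH 1, 2 and 3, against 19.1, 17.2 and 30.1 FPKM in control 1, 2 and 3. Agt, which encodes angiotensinogen, was at 642, 622 and 121 FPKM in CIH 1, 2 and 3, against 1338, 1437 and 622 FPKM in control 1, 2 and 3.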

How the data were processed

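The authors deposited 1 table of FPKM per library; no header names the unit, which was read from the values. GRCm38, featureCounts 1.5.0-p3 and DESeq 1.8.3 appear, without roles, in the submitters' processing notes, and no source used here names the aligner or whether counting used strand. In the gene tables, FPKM times exon length (GENCODE mouse release 21) lay within 0.05 of a whole fragment for 98.4% to 98.6% of genes under 50 fragments. Transcript entries of CIH 3 and control 3 were summed per gene ID; the number of entries equals that of coding transcripts for all 10 genes.

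Values on the scale of log2(FPKM + 1) went into limma 3.58.1 under R 4.3.3 (two-sided moderated test, variance trend on) over 10976 genes, with 0.05 as the limit for the adjusted p. Other steps used Python 3.11.15. The fit was tested on simulated data. There the replicate 3 libraries were drawn with the spread of the gene tables, so the simulation cannot test whether they vary like those tables. Genes named are the 10 members, list genes with their calls (1 listed gene is not reported here), and the 3 nearest genes to Pdk1 and to Pdk4. The members, lists and rules were chosen with earlier results of these data known.

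Groups share replicate numbers. Deviations from group means correlated at 0.529, 0.587 and 0.581 between same-numbered libraries, which met the set rule for pairing. CIH 2 with control 1 (0.568) and CIH 1 with control 2 (0.567) correlated as highly. Each group mean spans both kinds of table, so these correlations cannot decide whether the numbers pair the samples. Within the gene tables alone the correlation was −0.178, so pairing by number was not shown there. The main fit held no replicate block, which was run as an alternative.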

Additional observations from a re-analysis of the deposited data

Results flagged for a closer look

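For the 10 genes the change in the replicate 3 pair was set apart from that in CIH 1 and 2 against control 1 and 2 by limma's interaction of group and kind of table. That pair has 1 library per group, so the calls hold only if its libraries vary like those of the gene tables. With equal totals the difference of Pdk2 was −0.01 and was not called (adjusted p = 0.925). With totals that left out mitochondrial-encoded genes it was −0.52. The log2 change in the replicate 3 pair minus that in replicates 1 and 2 was 1.66 for Pdk1, −0.75 for Pdk2, 1.86 for Pdk3 and −1.22 for Pdk4. It was −1.17 for Pdha1, −2.68 for Pdhb and −2.36 for Dlat. It was 3.29 for Pdp1, −3.05 for Mpc1 and −3.10 for Mpc2. Of all tested genes, 43.9% passed as more positive and 22.1% as more negative. Kind of table, replicate number and library cannot be told apart here.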

How the results depend on the processing

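In replicates 1 and 2, the counts of 1 gene higher and 4 lower held with a pseudocount of 0.1, without a filter, over all genes of the gene tables, by the median of ratios, by the upper quartile, without a trend and with a replicate block; equal totals gave 1 higher and 6 lower, and equal totals without mitochondrial-encoded genes 1 and 5. The replicate block changed no call of the 10 genes, nor did a crossed block, added after seeing the data (1 higher and 4 lower; 2140 and 2370 over all genes, against 1556 and 1776 with same-numbered pairs). Leaving out 1 library, where the lone library of a group is assumed to vary like the other group, gave 0 to 1 higher and 3 to 4 lower. Over all genes it gave 827 to 1736 higher and 1038 to 1946 lower, with 827 and 1038 without CIH 1 and 1124 and 1192 without CIH 2. All 6 libraries with the group alone, or with a replicate block, gave 0 and 0 of the 10 genes and 0 and 0 of all genes (490 at an unadjusted p under 0.05 with the group alone); a term for the kind of table gave 0 and 0 of the 10 and 20 and 43 of all. In these 3 fits Pdk3 turned to 0.067, Pdha1 to −0.28, Mpc1 to −0.90 and Mpc2 to −0.41. The opposite changes in the transcript tables enter those means. With equal totals Pdha1 turned to −0.015 and Mpc1 to −0.0075, and leaving out 1 library gave −0.11 (without control 2) to 0.34 for Mpc1. In the replicate 3 pair, no direction changed in the 6 alternatives run. With the highest entry in place of the sum, the shares in control 3 were 14.3% for Pdk1, 38.4% for Pdk2 and 41.3% for Pdk4. The counts of 3 and 7 in the test between the tables held in 10 of 11 alternatives; equal totals gave 3 and 6. Depth limits Pdp1 most in the gene tables, at 313 to 388 fragments.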
